A study of Mus musculus with 8 samples.

Results

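The comparison described here is between MFN2 cKO and MFN2 WT spermatocytes of the leptotene and zygotene stages (L/Z), collected at postnatal day (PD) 24. It was made over every gene whose FPKM (fragments per kilobase of transcript, scaled to the depth of the library) was over 1 in at least 1 of the 2 libraries, which were 17664 of the 54532 genes listed. To get the change of a gene, log2(FPKM + 1) of the MFN2 WT library was taken from that of the MFN2 cKO library, so that a negative value means lower RNA in MFN2 cKO. Each side was 1 library, and therefore no test of the genotype could be made and no p-value is given. A gene was counted when it was at least 2-fold higher or lower on this scale. A fold or ratio given with an interval was taken from the reads of the gene, scaled as the authors scaled them, and its 95% interval is exact binomial and covers counting error only, not the difference between animals or preparations.

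The study sequenced RNA of 8 libraries from C57BL/6J male mice, 1 for each combination of genotype, spermatocyte stage (L/Z or pachytene, P) and age (PD 24 or PD 52). The MFN2 WT mice carried floxed Mfn2 (Mfn2 loxp/loxp) and no Cre, and the methods of the study describe its controls as littermates with 1 or both alleles floxed. The MFN2 cKO mice were Mfn2 loxp/loxp; Stra8-Cre, in which the Cre recombinase is driven by the promoter of Stra8 and acts in male germ cells from early spermatogonia onwards, so the somatic cells of the testis keep the floxed gene. Cells were released with collagenase and trypsin and separated by sedimentation through an albumin gradient, and their purity was judged by diameter and morphology. The libraries held 16519210 reads in L/Z MFN2 WT and 15537388 reads in L/Z MFN2 cKO, within a range of 14340665 to 20379950 over all 8.

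MFN2 (mitofusin 2) is a GTPase of the outer mitochondrial membrane. Together with its relative MFN1 it joins the outer membranes of neighbouring mitochondria, after which OPA1 joins the inner membranes, and it also sits at contacts between mitochondria and the endoplasmic reticulum. Male germ cells pass from spermatogonia into meiosis, in which leptotene and zygotene cells make DNA breaks and pair their chromosomes and pachytene cells complete recombination. After the divisions, round spermatids build the acrosome and tail, and elongating spermatids replace the histones of their chromatin first by transition proteins and then by protamines.

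The labelled stage was first checked against marker genes. Of the 9 markers of leptotene and zygotene cells, 5 were higher in the L/Z than in the P library of MFN2 WT at PD 24, and their summed level was 130 FPKM in L/Z and 179 FPKM in P. Stra8, which starts meiosis, and Dmc1, the meiotic recombinase, were among the higher ones, with 28.4 against 14.6 FPKM and 14.6 against 7.45 FPKM. The remaining markers of this list were not higher in L/Z. The 7 pachytene markers summed to 2126 FPKM in L/Z and 2904 FPKM in P, and 2 of them were higher in L/Z. Among them Piwil1, a piRNA-binding protein made from pachytene onwards, differed strongly (22.2 and 278 FPKM), whereas Ccna1, a meiotic cyclin, did not (88.4 and 83.2 FPKM). The sums of both lists were 0.73 times as high in L/Z as in P, so they did not set the stages apart. The markers of later cells did not follow the label either. The 8 markers of elongating spermatids summed to 2492 FPKM in L/Z MFN2 WT and 1252 FPKM in P MFN2 WT, and all 8 markers of round spermatids were also higher in the L/Z library, with sums of 430 and 194 FPKM. Therefore the L/Z libraries held RNA of spermatids as well as of spermatocytes, and they are called L/Z libraries below. In such bulk libraries, fewer cells of a type and less RNA per cell cannot be told apart.

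**Figure D1:**
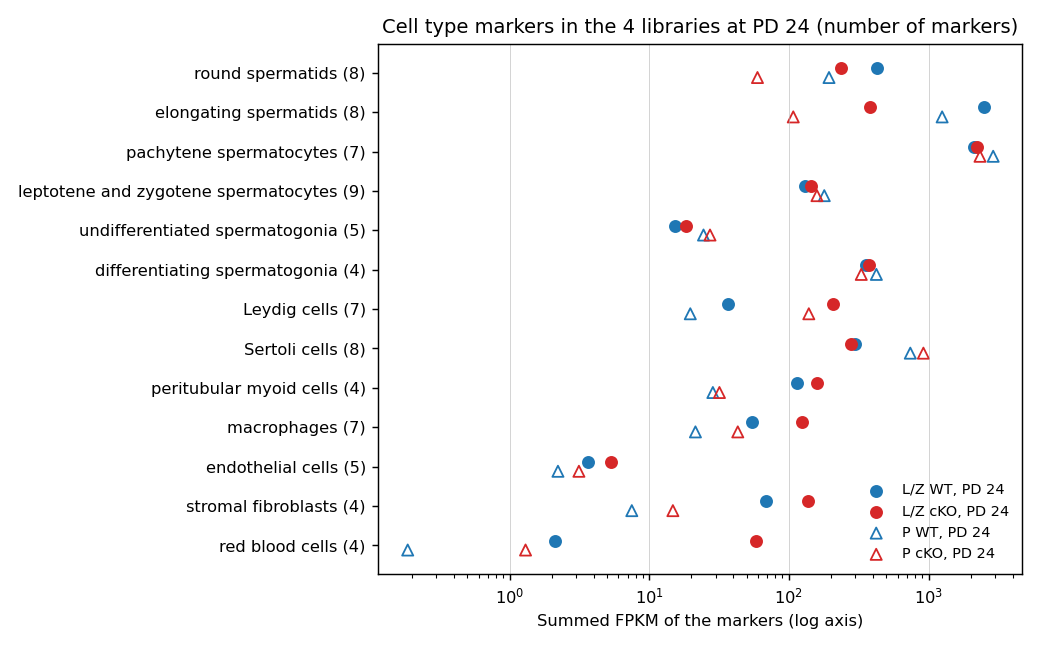
Summed FPKM (log axis) of the marker genes of 13 cell types in the 4 libraries at PD 24. Filled circles are L/Z and open triangles P, in blue for MFN2 WT and red for MFN2 cKO. Elongating spermatid markers were at 2492 FPKM in L/Z MFN2 WT and 380 FPKM in L/Z MFN2 cKO, and Leydig cell markers were at 36.4 and 206 FPKM.

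Between the L/Z libraries, markers of 3 kinds of cell moved apart the most. Markers of elongating spermatids were at 2492 FPKM in MFN2 WT and 380 FPKM in MFN2 cKO. The 7 markers of Leydig cells, the steroid-making cells between the tubules, were all higher in MFN2 cKO (36.4 and 206 FPKM, a ratio of 5.66). The 4 haemoglobin genes used for red blood cells summed to 2.11 and 58.5 FPKM, a ratio of 27.8. Markers of macrophages were 2.28 times higher in sum (54.6 and 125 FPKM, 6 of 7 genes higher), and markers of stromal fibroblasts were at 68.7 and 138 FPKM. By contrast, the sums differed little for pachytene markers (2126 and 2215 FPKM), for leptotene and zygotene markers (130 and 144 FPKM) and for differentiating spermatogonia (359 and 373 FPKM). Of the 8 Sertoli cell markers 7 were lower in MFN2 cKO, with sums of 296 and 278 FPKM.

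Mfn2 itself was lower in MFN2 cKO. Mfn2 (ENSMUSG00000029020, GRCm38 chr4:147873599-147904704) was at 82.2 FPKM in L/Z MFN2 WT and 34.3 FPKM in L/Z MFN2 cKO, a change of -1.23. From 8065 and 3164 reads, the MFN2 cKO library kept 41.8% of the MFN2 WT level (interval 40.1 to 43.5). The values count reads over the whole gene and do not measure the floxed exon. In the other pairs Mfn2 was at 77.1 and 39.6 FPKM (P, PD 24), 97.5 and 47.9 FPKM (L/Z, PD 52) and 62.2 and 50.1 FPKM (P, PD 52). Each MFN2 cKO library was thus below all 4 MFN2 WT libraries.

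The other genes of mitochondrial fusion and fission stayed within 2-fold of the MFN2 WT level on the log2(FPKM + 1) scale. Mfn1 was at 14.2 and 13.7 FPKM, a ratio of 0.968 with an interval of 0.902 to 1.04. Opa1 was at 7.15 and 7.59 FPKM, a ratio of 1.06 with an interval of 0.974 to 1.16, and its small positive change of 0.08 turned slightly negative under a further scaling by the median of ratios. Of the 37 measured genes of this list, Mfn2 was the only one past 2-fold, and the median change was 0.11. The highest changes were those of Prelid1, which carries phosphatidic acid between the mitochondrial membranes (9.13 and 18.6 FPKM, 0.95), and Stoml2, a scaffold of the inner membrane (5.10 and 9.63 FPKM, 0.80). Spire1, an actin nucleator with an isoform at mitochondria, was at the lower end with -0.43.

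Across all 17664 genes the median change was 0.08 and the standard deviation 0.65. Most genes (74.5%) lay within 1.5-fold of the MFN2 WT level. The 1st and 99th percentiles were -2.16 and 1.43, so the lower tail was the longer one. At least 2-fold lower were 1242 genes (7.03%) and at least 2-fold higher 610 genes (3.45%), and 67.1% of the counted genes were therefore lower. At 4-fold the numbers were 233 lower and 46 higher, and at 8-fold 43 lower and 8 higher. Some of the counted genes rested on few reads, namely 352 of the lower and 159 of the higher ones with fewer than 20 reads in the 2 libraries together. At the edge of the FPKM filter, Gm7787 entered with 1.00 and 0.574 FPKM (13 and 7 reads) and Gm43029 stayed out with 0.99991 and 0.331 FPKM.

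**Figure D2:**
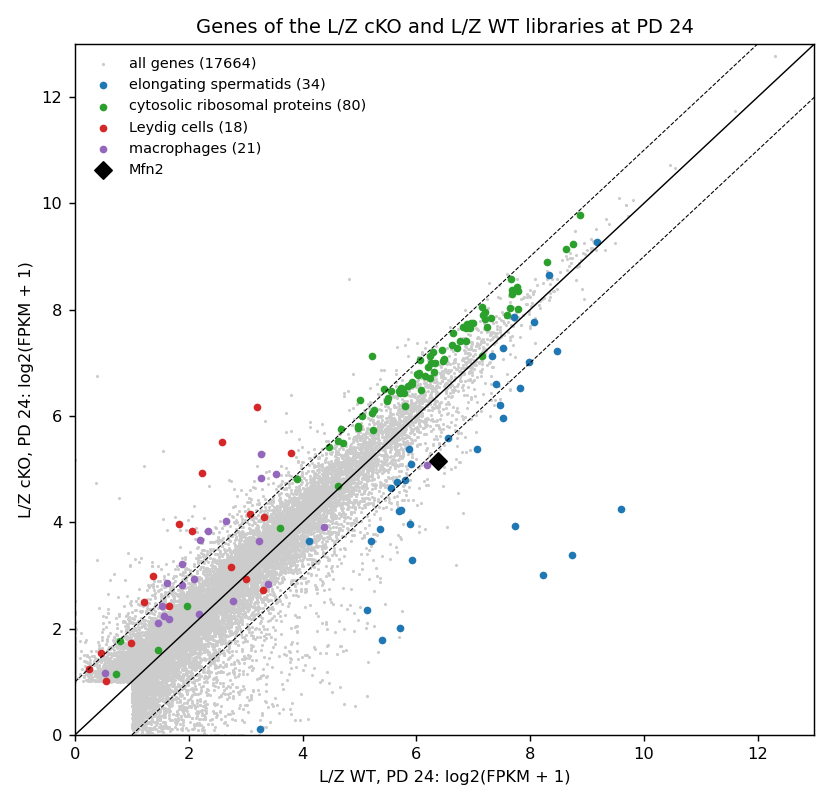
Level of each of the 17664 genes in L/Z MFN2 WT (x axis) and L/Z MFN2 cKO (y axis) at PD 24, as log2(FPKM + 1), with dashed lines at 2-fold. Of 34 elongating spermatid genes 31 lie below the diagonal and 20 of them past the lower line, cytosolic ribosomal protein genes lie mostly just above it (79 of 80), Leydig and macrophage genes lie mostly above it, and the diamond is Mfn2.

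Of the 12 most negative protein-coding genes over 10 FPKM, 5 encode proteins that pack sperm DNA, Tnp2, Prm1, Prm2, Tnp1 and H2al2a. Tnp2 (transition protein 2), Prm1 and Prm2 (the 2 protamines of mouse sperm) had the most negative changes among protein-coding genes over 10 FPKM. Protamine and transition protein genes are transcribed in round spermatids, and their mRNAs are stored before translation. Of these genes Prm1, Prm2, Prm3 and Tnp2 stand next to each other on chromosome 16, and Tnp1 is on chromosome 1. The 120 bases before the RefSeq start of each are given below, because these genes were lower together but by different sizes. Coordinates are on GRCm38.p6, all 5 lie on the minus strand, and sequences are written 5′ to 3′ along the gene. Capitals mark the letters TGACNTCA on either strand, a pattern close to the cyclic AMP response element, and the letters TATAA.

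Prm1, chr16:10796824-10796943: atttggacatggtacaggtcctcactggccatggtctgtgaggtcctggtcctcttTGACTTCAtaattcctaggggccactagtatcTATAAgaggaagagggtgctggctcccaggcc
Prm2, chr16:10792106-10792225: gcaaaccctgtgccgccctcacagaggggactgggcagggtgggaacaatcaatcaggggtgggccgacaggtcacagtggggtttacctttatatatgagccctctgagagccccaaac
Prm3, chr16:10790915-10791034: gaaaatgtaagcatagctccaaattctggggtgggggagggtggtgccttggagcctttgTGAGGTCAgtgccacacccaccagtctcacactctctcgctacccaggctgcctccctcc
Tnp2, chr16:10788656-10788775: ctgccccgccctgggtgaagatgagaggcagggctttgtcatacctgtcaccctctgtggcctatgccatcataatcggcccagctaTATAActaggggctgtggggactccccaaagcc
Tnp1, chr1:73015900-73016019: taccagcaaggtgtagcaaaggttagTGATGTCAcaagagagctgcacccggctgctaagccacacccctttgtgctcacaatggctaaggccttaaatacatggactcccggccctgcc

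The pattern TGACNTCA began 64 bases before the start of Prm1, 60 before Prm3 and 94 before Tnp1. TATAA began 32 bases before the start of Prm1 and 33 before that of Tnp2, and neither run of letters was in the stretch of Prm2. The deposited gene models of Prm1 and Prm2 begin 9016 and 4029 bases away from the RefSeq start, so their reads cover more than the coding transcript. Among the 11593 genes of the comparison with a RefSeq promoter of the same symbol, 8.47% held TGACNTCA in the 250 bases before the start, and among all 27025 promoters 7.59% did. For the genes at least 2-fold lower the share was 27.2% (153 of 563), and for those at least 2-fold higher 5.26% (15 of 285). For the round and elongating spermatid lists joined with the list of protamines, transition proteins and linker histones it was 35.6% (21 of 59). TATAA had shares of 9.12% over the genes of the comparison, 12.8% over the lower and 20.7% over the higher genes. These are counts of letters and not of bound sites.

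Prm1 was at 424 FPKM in L/Z MFN2 WT and 9.48 FPKM in L/Z MFN2 cKO, from 4578 and 96 reads, which is 44.8-fold lower (interval 36.6 to 55.4). Prm2 was at 298 and 7.06 FPKM, 42.2-fold lower (35.0 to 51.3). Tnp2 was at 778 and 17.9 FPKM, 43.4-fold lower (37.4 to 50.7). The intervals of these 3 genes overlap, so their sizes could not be told apart by the reads. Tnp1 was at 211 and 14.3 FPKM, 14.8-fold lower (12.2 to 18.04), an interval that lies below the other 3. Tnp1 overlaps an antisense gene, 1700027A15Rik, that was also lower (9.48 and 0.444 FPKM), and without a stated strand the reads of both cannot be separated. The same holds for Prm1, which overlaps Gm10343 (8.42 and 9.48 FPKM) and CT010583.1 (5.77 and 4.78 FPKM) on the opposite strand, levels close to that of Prm1 itself in MFN2 cKO. Prm3, a cytoplasmic protein in spite of its name, was at 51.8 and 17.9 FPKM (-1.48), so the 4 neighbours on chromosome 16 were not lower by the same size.

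In the list of protamines, transition proteins and spermatid linker histones, 9 of the 12 genes that passed the filter were at least 2-fold lower and 0 were higher, with a median of -2.57 beside 0.08 over all genes. H1fnt, the linker histone of round and elongating spermatids, was at 103 and 8.10 FPKM (-3.51). H2al2a, a histone H2A variant that opens the nucleosome for the transition proteins, was at 50.9 and 2.60 FPKM (-3.85). Hils1, another spermatid linker histone, kept more of its level with 225 and 90.8 FPKM (-1.30). Haspin, which encodes a histone kinase, was at 261 and 221 FPKM (-0.24), and the 2 variants H2afb1 and H2afb3 had values of 0.42 and 0.40. Prm3, Hils1 and Haspin are named outside the rule for named genes, after their values were seen.

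Genes of spermatids were lower beyond the packing proteins. Of 34 genes of elongating spermatids 20 were at least 2-fold lower and 0 higher, with a median of -1.28. Of 30 genes of round spermatids 10 were lower and 0 higher, with a median of -0.81. The members did not move as a block. Fam71b, a testis gene of spermatids, was at 21.99 and 0.746 FPKM (-3.72), and Spata3 was at 26.0 and 2.01 FPKM (-3.17). Odf1, which builds the outer dense fibres of the tail, was at 250 and 129 FPKM (-0.95). Smcp, a protein of the mitochondrial capsule around the midpiece, was at 356 and 148 FPKM (-1.26). At the other end, Meig1 (577 and 620 FPKM), Gk2 (321 and 402 FPKM) and Tex22 (114 and 149 FPKM) had values of 0.10, 0.32 and 0.39. Meig1, Gk2 and Tex22 were also abundant in the P library of MFN2 WT at PD 24, with 740, 248.7 and 120 FPKM.

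The other 7 of the 12 most negative genes encode other kinds of protein. Tuba8, an alpha tubulin, was at 29.4 and 0.448 FPKM (1258 and 18 reads), 65.6-fold lower on the reads. Prss37, a serine protease homologue needed for sperm to pass into the oviduct, was at 34.0 and 0.653 FPKM, 52.1-fold lower. Cst13, a testis cystatin, was at 25.3 and 0.504 FPKM, 50.3-fold lower. Spata31d1b was at 16.0 and 0.237 FPKM, a 67.7-fold difference, with 18.8% of its 100-base windows shared with Spata31d1a. Ccdc185, Sppl2c (an intramembrane protease of spermatids) and 4930407I10Rik were 21.6-fold, 19.99-fold and 27.8-fold lower, from MFN2 WT levels of 34.3, 39.2 and 24.1 FPKM. The 12 most negative genes, among which H2al2a and the packing proteins above, were also lower in the P pair at PD 24 with changes from -5.67 to -2.89.

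Acrosome genes were lower in smaller number, 9 of 49 with 0 higher and a median of -0.52. Ccin, the actin-associated calicin of the sperm head, was at 52.7 and 4.01 FPKM (-3.42), and Actrt3, an actin-related protein of the perinuclear theca, was at 8.80 and 0.288 FPKM (-2.93). Prss55, a sperm serine protease, had a change of -2.99. Zpbp2 and Izumo4, in contrast, were at 0.32 and 0.27.

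Of the 42 tail genes 13 were lower and 0 higher, with a median of -0.41. Spem1, which strips cytoplasm from the neck of the sperm, was at 51.2 and 3.03 FPKM (-3.69), and Cabs1, a calcium-binding protein of the tail, was at 41.0 and 2.44 FPKM (-3.61). Ropn1l, an abundant protein of the fibrous sheath, was at 819 and 996 FPKM (0.28). The axoneme list, which holds the dynein arms and spokes that all motile cilia share, had only 2 of 59 genes lower and a median of -0.14, with Dnah3 (11.2 and 3.69 FPKM) and Hydin (-1.07) as the 2.

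Of the 30 genes of the CatSper calcium channel and sperm ion transport 4 were lower. Atp1a4, the sodium pump subunit particular to sperm, was at 65.2 and 13.04 FPKM (-2.24), and Slc36a3, of a family of amino acid carriers, had the lowest value with -2.45. Of the 11 measured genes of testis-specific serine kinases and their substrate, 3 were lower. Tssk6, needed for the change from histones to protamines, was at 23.3 and 1.86 FPKM (-3.09), whereas Tssk2 was at 115 and 47.6 FPKM (-1.25) and Tssk1 at 55.1 and 29.4 FPKM (-0.88). The Smok kinases, expressed in late spermatids, were at low levels. Smok2a went from 65 reads to 0, at least 20.3-fold lower against a floor of 3 reads, and Smok2b had 72 and 0 reads, at least 22.5-fold lower.

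Among ADAM and chaperone genes that sperm need to reach and bind the egg, 7 of 32 were lower and 0 higher. Calr3, a calreticulin of the testis that folds ADAM3, was at 20.501 and 2.99 FPKM (-2.43), while Adam3 itself was at 255 and 205 FPKM (-0.31). The heat shock list showed a similar division. Of its 30 genes 6 were lower, led by Dnajb7 (31.2 and 4.27 FPKM), Dnajb8 (-2.53) and Hspa1l (-2.33), which are testis forms, but the median of the list was 0.16 and Hspa8, the constitutive cytosolic form, was at 99.2 and 148 FPKM (0.57). In glycolysis, Gapdhs, the sperm form of the glyceraldehyde phosphate dehydrogenase, was at 182 and 60.9 FPKM (-1.57) and Hk1, whose testis isoform sits on the tail, at 84.3 and 40.3 FPKM (-1.04). The other 26 of the 28 genes of this list, which also holds genes outside glycolysis such as Cox6b1, were within 2-fold. Ldhc, the lactate dehydrogenase subunit of spermatocytes and later cells, was at 1494 and 1622 FPKM.

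The regulators of spermatid transcription were mostly close to the MFN2 WT level, with 4 of 35 lower, 0 higher and a median of -0.01. Fhl5 (also called ACT), which activates CREM in spermatids, was at 58.6 and 15.4 FPKM (-1.86). Spz1, a leucine-zipper factor of spermatids, was at 177 and 79.0 FPKM (-1.15), and Trim66 had a change of -1.40. Genes of the X and Y chromosomes that work in spermatids were lower in 11 of 18 cases with a median of -1.28. Akap4, the main fibrous sheath protein and X-linked, was at 134 and 40.4 FPKM (-1.70), and H2al3, an X-linked histone variant, was at 15.5 and 1.84 FPKM (-2.54). With no FPKM filter 30 members enter and that median is -0.38.

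**Figure D3:**
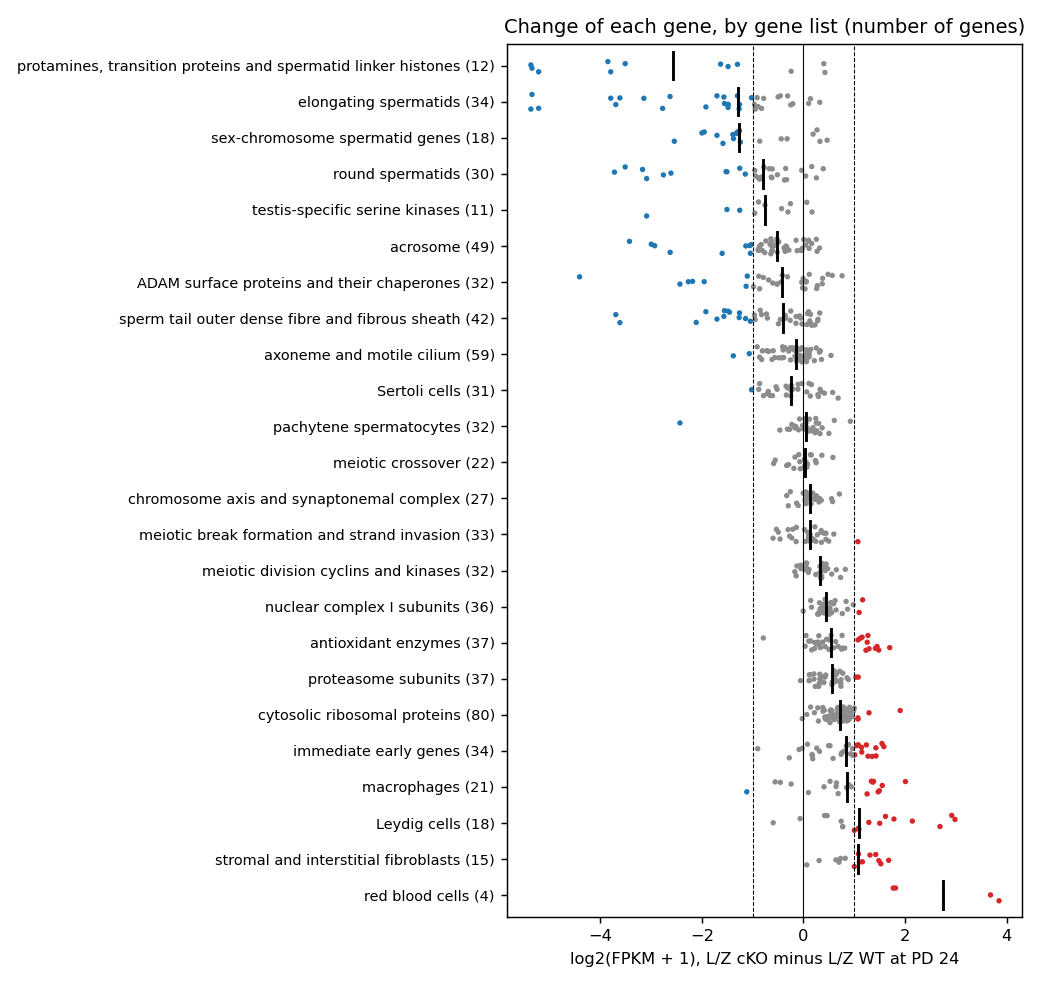
Change of each member (points) and median (bar) in 24 gene lists between the L/Z libraries at PD 24, on the log2(FPKM + 1) scale with negative values for lower RNA in MFN2 cKO. Blue points are at least 2-fold lower and red points at least 2-fold higher. Protamine and transition protein genes have a median of -2.57, meiotic lists lie near the median of all genes, and Leydig and stromal genes both have a median of 1.08.

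Genes of meiosis itself were near the level of all genes. Of 29 genes of meiotic entry 1 was lower, Gm4969 (also known as Meiosin), with 19.8 and 9.25 FPKM (-1.02). Its partner Stra8 was at 28.4 and 23.8 FPKM (-0.24). Of 33 genes of DNA breaks and strand exchange 1 was higher, Mnd1 (4.96 and 11.5 FPKM, 1.07), a partner of HOP2 in strand exchange. Spo11, which makes the breaks, was at 10.5 and 8.51 FPKM, and Dmc1 at 14.6 and 17.2 FPKM. In the lists of the chromosome axis and synapsis (27 genes), crossover (22), telomere attachment (18), meiotic division (32) and the piRNA pathway (25), 0 genes passed 2-fold in either direction, with medians of 0.13, 0.03, 0.20, 0.33 and 0.11. Sycp3, of the axis, was at 38.4 and 63.3 FPKM (0.71), and Msh5, of the crossover complex, was at 6.66 and 4.10 FPKM (-0.59).

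The 32 pachytene genes had a median of 0.06, and Calr3 was the only one past 2-fold. Pgk2, a glycolytic enzyme that appears in spermatocytes, was at 253 and 240 FPKM. The 17 measured genes of undifferentiated spermatogonia were all higher in MFN2 cKO at some size, but 0 passed 2-fold and the median was 0.26. Lin28a, an RNA-binding protein of these cells, was at 5.18 and 11.1 FPKM (0.97), and Uchl1 at 48.7 and 71.2 FPKM (0.54). Of 40 genes of DNA replication and proliferation 0 passed 2-fold, with a median of 0.18, and Pcna, the clamp of the replicative polymerases, was at 52.7 and 78.4 FPKM (0.56).

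Several lists of cells around the germ line were higher. Of 18 Leydig cell and steroidogenesis genes 11 were at least 2-fold higher and 0 lower (median 1.08), and the summed levels were 81.0 and 289 FPKM. Insl3, the insulin-like hormone of Leydig cells, was at 8.16 FPKM in MFN2 WT and 71.4 FPKM in MFN2 cKO (96 and 789 reads), 8.75 times higher (7.08 to 10.9). It shares 58.2% of its 100-base windows with the overlapping gene Jak3, which was at 2.53 and 1.81 FPKM. Hsd3b6, the 3-beta-hydroxysteroid dehydrogenase of adult Leydig cells, was at 4.99 and 44.3 FPKM, 8.88 times higher (7.57 to 10.5). Cyp17a1, which turns progestins into androgens, was at 3.71 and 29.4 FPKM, 7.90 times higher (6.67 to 9.43). Cyp11a1, the first enzyme of steroid synthesis, was at 3.17 and 13.3 FPKM, while Star, which brings cholesterol into the mitochondrion, was at 2.12 and 4.33 FPKM (0.77). Scarb1, a lipoprotein receptor, was lower with 8.93 and 5.57 FPKM (-0.60).

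Of 5 measured tissue kallikreins (Klk1b), 3 were higher and 1 lower. Klk1b21 and Klk1b24, which Leydig cells make, were at 0.304 and 8.80 FPKM and at 0.603 and 7.19 FPKM. Klk1b8 went the other way with 3.82 and 0.0656 FPKM (62 and 1 reads). Over the 14 members without the filter the median changed sign, from 1.69 to -0.16, so the list has no common direction.

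Of 15 stromal genes 9 were higher and 0 lower (median 1.08). Dcn, the matrix proteoglycan decorin, was at 16.4 and 54.7 FPKM, 3.33 times higher (3.16 to 3.52), and Gsn (gelsolin) was at 40.5 and 115 FPKM. Of 21 macrophage genes 8 were higher and 1 lower (median 0.85). Lyz2, lysozyme, was at 8.69 and 37.95 FPKM, 4.37 times higher (3.76 to 5.09), and C1qb, of complement, was at 8.66 and 27.3 FPKM. Genes of antigen presentation did not follow, with Cd74 at 19.7 and 14.1 FPKM and H2-Ab1 at 9.54 and 6.16 FPKM. Aif1 was lower (72.1 and 32.7 FPKM, -1.11), and this gene was also lower in the P pair at PD 24 (28.1 and 7.76 FPKM).

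Haemoglobin transcripts had the 2 highest changes among protein-coding genes over 10 FPKM. Hbb-bs, a beta globin, was at 1.31 and 32.3 FPKM (19 and 440 reads), 24.7 times higher (15.6 to 41.4), and Hba-a1, an alpha globin, was at 0.717 and 21.04 FPKM, 29.3 times higher (16.2 to 59.4). Each shares sequence with its neighbouring copy, over 49.7% of windows with Hbb-bt and 63.3% with Hba-a2. In the P pair at PD 24 the same genes were at 0.0645 and 0.630 FPKM and at 0.122 and 0.596 FPKM, so the L/Z MFN2 cKO library stood far above the other 3 of that age. In the remaining somatic lists, Sertoli cell genes had a median of -0.24, with 1 of 31 lower (Sox9, 4.403 and 1.66 FPKM) and 0 higher. Of 10 genes of peritubular myoid cells 2 were higher, Myl9 (64.1 and 138 FPKM) and Des, and 1 lower, Actg2 (45.8 and 18.1 FPKM), and of 8 endothelial genes Cd34 was higher with 3.43 and 10.5 FPKM.

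Several other genes of the top of the table are known from immune and stromal cells. Cxcl10, an interferon-induced chemokine, was at 12.1 and 65.7 FPKM (514 and 2625 reads), 5.44 times higher (4.95 to 5.99). It overlaps Art3 on the opposite strand, which was at 69.3 and 86.9 FPKM. Vcam1, an adhesion molecule, was at 3.25 and 18.8 FPKM, 5.80 times higher, and Pf4 and Cxcl2, both chemokines, were 8.23 and 6.55 times higher from 1.91 and 2.05 FPKM. Agt (angiotensinogen), Cbr2 (a carbonyl reductase) and Fabp3 (a fatty acid binding protein) were 6.05, 5.76 and 6.47 times higher. Fabp3 was at 9.13 and 59.1 FPKM, with 21.7% of its windows shared with the pseudogene Fabp3-ps1. The interferon list as a whole showed no common direction, with 3 of 32 genes higher (Cxcl10, Ly6a and Bst2), 1 lower (Gbp2) and a median of 0.22.

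Immediate early genes, which many cells switch on within minutes of a stimulus, were higher. Of 34 genes 12 were higher and 0 lower (median 0.85). Zfp36, which shortens the life of cytokine mRNAs, was at 57.0 and 173 FPKM, 3.03 times higher (2.92 to 3.15). Ier2 was at 54.5 and 161 FPKM, 2.96 times higher, Myc at 4.54 and 13.9 FPKM, and Fos, named after its value was seen, at 154 and 364 FPKM. Egr3 (8.82 and 4.26 FPKM) and Arc (138 and 113 FPKM) were below the MFN2 WT level. Of 37 antioxidant genes 11 were higher and 0 lower (median 0.54). Gpx8, a peroxidase of the endoplasmic reticulum, was at 2.58 and 10.6 FPKM (1.70), Mgst1, a membrane glutathione transferase, was at 5.52 and 16.8 FPKM (1.45), and Srxn1, which restores oxidised peroxiredoxin, was at 4.60 and 2.24 FPKM (-0.79). Both lists moved together with the Leydig, stromal and macrophage markers given above, and the part of those cells in these values was not tested.

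Genes of the integrated stress response had 1 member higher and 1 lower among 35. Cebpb was at 7.003 and 22.04 FPKM (1.53), Asns, which makes asparagine and is induced by ATF4, was at 25.5 and 9.23 FPKM (-1.37), and Hspa5, the main chaperone of the endoplasmic reticulum, was at 217 and 379 FPKM (0.80). Chac1, another ATF4 target, was at 2.20 and 1.14 FPKM. In the lists of apoptosis (29 genes) and of mitophagy and autophagy (41 genes) 0 genes passed 2-fold, with medians of 0.24 and 0.13. Bax, which opens the outer mitochondrial membrane, was at 7.42 and 13.6 FPKM (0.79), Sqstm1, an autophagy receptor, was at 35.6 and 64.7 FPKM (0.84), and Fundc1, a mitophagy receptor, was at 1.55 and 2.90 FPKM (0.61).

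A small common shift was seen in genes of protein synthesis and respiration. Of 80 genes of cytosolic ribosomal proteins 79 were higher in MFN2 cKO at some size and 4 passed 2-fold, with a median of 0.73. Rpl17 was at 36.5 and 139 FPKM (1.90), and its gene holds small nucleolar RNAs and shares 42.4% of its 100-base windows with other copies, so its value is uncertain. Rps4x (31.2 and 77.7 FPKM) and Rpl10 (42.3 and 90.2 FPKM), both X-linked, followed, and Rpl26 was the lowest with 142 and 140 FPKM. The nuclear genes of the respiratory chain moved likewise, with medians of 0.45 for complex I (2 of 36 past 2-fold), 0.38 for complex III (0 of 9), 0.67 for complex IV (2 of 16) and 0.45 for ATP synthase (0 of 17). Of complex I, Ndufb11 was at 12.1 and 28.4 FPKM and Ndufc2 at 16.4 and 36.1 FPKM. Of complex IV, Cox7b was at 4.71 and 11.2 FPKM, and Cox7a1, the muscle and heart form, was at 2.57 and 7.17 FPKM. Ndufa12, in contrast, was at 32.8 and 32.7 FPKM. The mitochondrial ribosome had a median of 0.42 (1 of 77 past 2-fold) and the proteasome one of 0.57 (2 of 37, Psma2 and Psmb10).

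The 13 measured protein genes of mitochondrial DNA had a median change of 0.22, and 1 of them passed 2-fold upwards and 1 downwards. Those of complex IV and complex III with many reads, mt-Co1 and mt-Cytb, were close to the MFN2 WT level. mt-Co1, of complex IV, was at 3114 and 3397 FPKM (0.13), and mt-Cytb, of complex III, was at 1404 and 1685 FPKM (0.26). Most members of the mitochondrially encoded list that passed 2-fold (3 higher, 4 lower of 28) were transfer RNA genes with few reads, such as mt-Ts2 with 5 and 0 reads. Among genes that keep the mitochondrial genome, 0 of 27 passed 2-fold, and Tfam, which packs it, was at 6.99 and 4.37 FPKM (-0.57).

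Gene length moved together with these shifts. The median change of protein-coding genes was 0.31 for transcripts of 1000 to 2000 bases, 0.09 for 4000 to 6000 bases and -0.15 above 10000 bases. It was smaller again for the shortest ones, with 0.13 up to 500 bases and 0.26 for 500 to 1000 bases. Spearman's correlation of change and length over 13118 genes was -0.294, given as a description, since genes of one library share its preparation. It was 0.068 in the P pair at PD 24, -0.286 in the L/Z pair at PD 52 and 0.374 in the P pair at PD 52. The median gene length was 1730 bases for cytosolic ribosomal proteins, 1438 for complex I, 1026 for complex IV and 2800 for the proteasome. The part of length in their medians was not tested. Some long genes were lower without passing 2-fold, such as Dync1h1, the dynein heavy chain of the cytoplasm (83.8 and 44.0 FPKM), and Ep300, an acetyltransferase and coactivator (6.65 and 3.39 FPKM). Above 10000 bases 21 of 1066 genes (1.97%) were at least 2-fold lower and 2 (0.188%) higher. Over all protein-coding genes these shares were 3.79% and 2.66%.

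**Figure D4:**
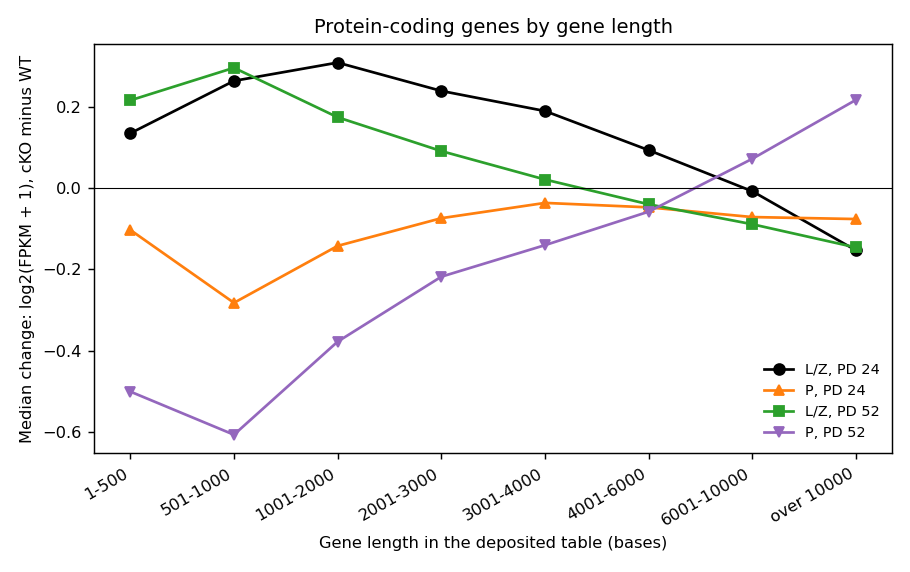
Median change of protein-coding genes (y axis, difference of log2(FPKM + 1), negative where MFN2 cKO is lower) by bin of gene length in bases (x axis), with a line for each of the 4 pairs. In the L/Z pair at PD 24 the median goes from 0.13 up to 500 bases to 0.31 at 1000 to 2000 bases and then down to -0.15 above 10000 bases.

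PPARs are nuclear receptors that respond to fatty acids and turn on genes of lipid use. Of 13 receptors, partners and coactivators of this pathway 0 passed 2-fold, and the median was -0.45, or -0.22 over all 17 members without the FPKM filter. Pparg was at 1.33 and 1.70 FPKM and Ppard at 0.937 and 1.09 FPKM, and the lowest values were those of the coactivators Ep300 (-0.80) and Ncoa2 (-0.64). The median gene length in this list was 8753 bases, and protein-coding genes of 6000 to 10000 bases had a median change of -0.008. The part of length in the median of this list was not tested. Of 46 genes of lipid transport and storage 4 were higher and 4 lower (median 0.04). Fabp3, Angptl4 (2.83 and 8.44 FPKM), an inhibitor of lipoprotein lipase, and Cd36 (0.649 and 2.70 FPKM), a fatty acid receptor, were higher. Lipe, the hormone-sensitive lipase (10.4 and 2.51 FPKM), Agpat2, of phosphatidic acid synthesis (6.86 and 1.56 FPKM), and Aqp7, a glycerol channel that spermatids carry (33.1 and 13.9 FPKM), were lower.

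Fatty acid oxidation had 3 of 45 genes higher and 0 lower, with a median of 0.27. Acaa2, the last enzyme of the mitochondrial cycle, was at 14.4 and 46.4 FPKM (1.62), and Acadl and Acadm, the dehydrogenases of long and medium chains, were at 7.58 and 20.6 FPKM and at 4.34 and 10.3 FPKM. In cholesterol synthesis the median was 0.38. Msmo1, a sterol oxidase, was higher (1.46 and 4.55 FPKM), while Cyp51, a sterol demethylase, was at 15.2 and 10.8 FPKM. Of 28 genes listed with the citrate cycle, Idh2 (4.27 and 11.4 FPKM) and the cytosolic Idh1 (11.1 and 24.9 FPKM) were higher. Leydig cells also synthesise cholesterol. Their marker sums of 36.4 and 206 FPKM stand beside these values, and their part in them was not tested.

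Contacts between mitochondria and the endoplasmic reticulum had 0 of 29 genes past 2-fold and a median of 0.23. Pdzd8, a tether of these contacts, was at 16.9 and 8.03 FPKM (-0.98), Mcu, the calcium channel of the inner membrane, was at 2.03 and 0.731 FPKM (-0.81), and Bcap31 was at 23.1 and 38.1 FPKM (0.70). Of 45 import and protease genes Clpp (7.05 and 16.3 FPKM) and Timm10 (5.58 and 12.3 FPKM) were higher. Of 45 mitochondrial carriers Slc25a5, the ADP/ATP carrier of dividing cells, was higher (17.5 and 36.2 FPKM), and Slc25a41 (10.4 and 2.29 FPKM) and Slc25a37 (4.33 and 1.63 FPKM), the iron carrier mitoferrin, were lower.

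A count over families of genes with a common symbol stem, made after the data were seen, needed no chosen list. Among 314 families with at least 6 measured protein-coding genes, 6 had a median below -0.5 and 19 one above 0.5. The lowest were Cypt, cysteine-rich proteins of the perinuclear theca (-1.35, 6 of 6 past 2-fold), Tssk (-0.92), Spata (-0.70, 10 of 29), and Mroh and Dnah (both -0.58). The highest were Cxcl chemokines (1.497, 3 of 6), Gpx (1.19, 4 of 6), Hsd steroid dehydrogenases (0.77, 3 of 8), Ssxb (0.74), Rps (0.72) and Psmb (0.71). By kind of gene, 497 of 13118 protein-coding genes were at least 2-fold lower and 349 higher. For long intergenic RNAs 175 of 1210 were lower (14.5%) and 23 higher, and for antisense RNAs 125 of 752 were lower (16.6%) and 14 higher. On the X chromosome, which is silenced in pachytene cells, 32 of 570 protein-coding genes were higher and 34 lower (median 0.16).

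The P pair at PD 24 shares no library with the L/Z pair, and its values can be set beside it. In P, 1054 of 16749 genes were lower (6.29%) and 300 higher (1.79%). Of the 15416 genes measured in both pairs, 944 were lower in L/Z and 921 in P, and 574 of them were lower in both, which is 60.8% of the first list and 62.3% of the second. For the higher genes 121 were shared, 26.6% of 455 in L/Z and 57.3% of 211 in P. Only 8 genes were higher in L/Z and lower in P, and 24 lower in L/Z and higher in P. Prm1 was at 218 and 3.30 FPKM in P, Tnp1 at 103 and 1.85 FPKM, and Tssk6 at 13.4 and 1.01 FPKM. Of the 30 round spermatid genes 25 were lower in P and 10 in L/Z, and for the acrosome list 32 and 9 were lower. The difference between the stages has no test with 1 library each. Spaca1, of the acrosomal membrane, was at 90.5 and 69.6 FPKM in L/Z and at 38.3 and 14.7 FPKM in P.

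The genes of the comparison were also set against age in MFN2 WT. In P libraries of MFN2 WT, 1618 of 17162 genes were higher at PD 52 than at PD 24 (9.43%) and 880 lower (5.13%). Of 1025 genes that were lower in L/Z MFN2 cKO and measured there, 278 (27.1%) were higher at PD 52 and 113 (11.0%) lower, with a median age difference of 0.46 beside -0.01 over all genes. Of 412 genes that were higher in L/Z MFN2 cKO, 85 (20.6%) were higher at PD 52 and 43 (10.4%) lower, with a median of 0.26. A rise with age was thus not particular to the lower genes. Prm2 was at 152 FPKM in P MFN2 WT at PD 24 and at 1134 FPKM at PD 52. The age difference in P MFN2 WT rests on libraries that are not in the L/Z pair.

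At PD 52 the L/Z pair looked different. The protamine list had a median of 0.64 with 4 of 12 genes higher and 0 lower, elongating spermatid genes had one of 0.43 (4 higher, 0 lower), and Prm1 was at 2081 FPKM in MFN2 WT and 4717 FPKM in MFN2 cKO. The share of all genes past 2-fold was not counted for this pair, so its list counts have no background beside them. Meiotic lists lay below the MFN2 WT level instead, with medians of -0.72 for entry, -0.49 for breaks and strand exchange, -0.40 for crossover and -0.50 for piRNA genes. The medians were smaller for the chromosome axis (-0.16), telomere attachment (-0.15) and meiotic division (-0.18). Of the somatic lists, Leydig, stromal and macrophage genes were again above the MFN2 WT level, with medians of 0.95, 1.46 and 2.07. Sertoli cell genes changed side, from -0.24 at PD 24 to 1.17 at PD 52 (13 of 23 at least 2-fold higher, 1 lower), and myoid genes from 0.39 to -0.08. In the P pair at PD 52 the protamine list had a median of -0.97, Leydig genes one of 1.499, and cytosolic ribosomal proteins one of -1.31.

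**Figure D5:**
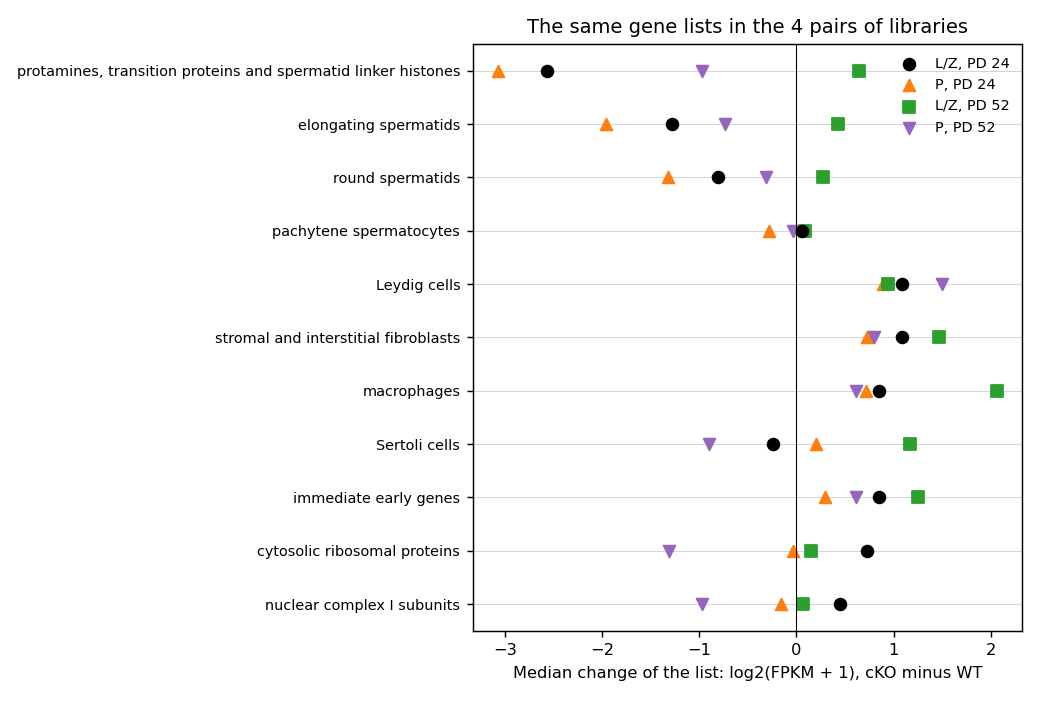
Median change of 11 gene lists in the 4 pairs of MFN2 cKO and MFN2 WT libraries, on the log2(FPKM + 1) scale. The Leydig list is above 0 in all 4 pairs (1.08, 0.89, 0.95 and 1.499), and the protamine list is below 0 in both pairs at PD 24 and above 0 in the L/Z pair at PD 52.

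Finally, some genes kept the 4 MFN2 cKO libraries apart from the 4 MFN2 WT libraries over both stages and ages. Of the 17664 genes, 126 were higher in every MFN2 cKO library than in any MFN2 WT library (0.713%) and 47 were lower (0.266%). The libraries of a genotype differ in stage and age and are not replicates, and these counts were made after the values were seen. Any split of the libraries into groups of 4 would set some genes apart, and how many was not counted. Of these genes 56 also passed 2-fold in the L/Z pair at PD 24. Hist1h2al, a histone H2A gene listed as a pseudogene, was at 0.312, 1.90, 0.197 and 0.919 FPKM in the MFN2 WT libraries (L/Z and P at PD 24, then L/Z and P at PD 52) and at 107, 82.5, 259 and 167 FPKM in the MFN2 cKO libraries. In the L/Z pair it rested on 2 and 645 reads, and it shares 19.2% of its windows with Hist2h2aa genes. Klf1, the erythroid factor, was between 0.346 and 0.393 FPKM in MFN2 WT and between 3.41 and 4.20 FPKM in MFN2 cKO. Hpgd, which inactivates prostaglandins, was between 0.992 and 1.54 FPKM in MFN2 WT and between 3.68 and 8.51 FPKM in MFN2 cKO. Galntl6, a glycosyltransferase relative, was lower, with 9.56 to 14.7 FPKM in MFN2 WT and 0.703 to 7.92 FPKM in MFN2 cKO. Klf1, Hpgd and Galntl6 all lie on chromosome 8, on which 18 of 936 measured genes (1.92%) were apart by genotype, beside 173 of 17664 (0.979%) over all. Chromosomes 13 and 3 had similar shares (1.94% and 1.92%). Socs3, an inhibitor of cytokine signalling, was at 15.01 to 42.1 FPKM in MFN2 WT and 44.1 to 115 FPKM in MFN2 cKO, and Zfp36 and Cxcl10 were apart in the same direction.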

How the data were processed

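The authors sequenced paired-end libraries and deposited FPKM values per gene, made with Novomagic, in 1 table of 8 libraries and 54532 genes. The submitters' processing notes name CASAVA 1.4, Bowtie 0.12.2, mm8 and mm9, but the deposited coordinates are those of GRCm38 (98.3% of the shared gene identifiers at the same place in GENCODE). Strand was not given in the sources used here. FPKM multiplied by the deposited gene length was a whole multiple of 1 step in each library (100% of values, tolerance 0.01), which gave the reads. The change was the difference of log2(FPKM + 1) between the L/Z libraries, MFN2 WT taken from MFN2 cKO, where FPKM was over 1 in either, and it understates the change of low genes. Intervals were 95% exact binomial (Clopper-Pearson), and the floor for 0 reads was 3 reads.

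Nothing was tested, as every group is 1 library. In simulated data on the reads of these 2 libraries, 100 of 100 genes changed by a log2 of 3 and 100 of 100 changed by 1.5 were counted, and 136 of 16748 unchanged genes were. The simulated reads varied by counting error only, and changes were set only in protein-coding genes over 10 FPKM. The simulation therefore checks the counting and gives no rate of wrong calls between animals or preparations. Named genes were Mfn2, Mfn1 and Opa1, the 12 highest and 12 lowest changes among protein-coding genes over 10 FPKM, the 3 most abundant genes of each library, up to 3 members at each end of the 59 gene lists, and 80 markers of 13 cell types. Exceptions are named as such. The lists and this comparison were chosen with earlier results of these data known, and some lists were drawn up in an earlier analysis of the same table, so they are no independent support. Sequences came from RefSeq (GRCm38.p6), where 11593 of 17658 gene names matched. Analyses used Python 3.11.15 with numpy 2.4.6, pandas 2.3.3, scipy 1.17.1 and matplotlib 3.10.9.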

Additional observations from a re-analysis of the deposited data

Results flagged for a closer look

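In 4 gene lists the L/Z pair at PD 24 and another pair had medians on opposite sides of the MFN2 WT level, each at least 0.5 away from it. The differences were not tested, because each pair is 1 library against 1. The protamine and transition protein list had a median of -2.57 in L/Z at PD 24 and 0.64 in L/Z at PD 52. The spermatid genes of the sex chromosomes had medians of -1.28 and 0.61 in the same pairs. The nuclear subunits of complex IV had a median of 0.67 in L/Z at PD 24 and -0.81 in P at PD 52, and the cytosolic ribosomal proteins had medians of 0.73 and -1.31 in those pairs.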

How the results depend on the processing

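Within the L/Z comparison no paired analysis was possible, because each side has 1 library and the labels carry no replicate numbers. For the same reason no library could be left out. Genotype was not tested over the 4 pairs together. The direction of the Mfn2 change held under the alternatives run, and the cause of the moves below was not tested. The counts of genes at least 2-fold higher and lower (610 and 1242) were 1257 and 1868 with a pseudocount of 0.1, 229 and 348 over genes above 10 FPKM, and 349 and 497 over protein-coding genes, the last 2 with fewer genes tested. Above 10 FPKM, 7 Leydig genes were higher instead of 11, and the medians of Leydig and macrophage genes were 1.96 and 1.38. With the smaller pseudocount 1 immediate early gene was lower instead of 0. A further scaling by the median of ratios shifted the change of a highly expressed gene by -0.09 and that of low genes by less, made 72.9% instead of 67.1% of the counted genes lower, gave 2 ribosomal protein genes higher and a median of 0.64, and gave Mfn2 a change of -1.32. Of 60 medians, it changed the sign of 4 (the pachytene, crossover, lipid and glycolysis lists, all within 0.1 of 0). Above 10 FPKM 4 of 58 changed sign, those of the crossover (-0.02), telomere (-0.02), Sertoli (0.09) and histone (0.80) lists. The histone median was 0.0003 with at least 20 reads, and the kallikrein median was -0.16 without the filter. The share of lower L/Z genes also lower in P was 49.1% without the FPKM filter, 85.1% above 10 FPKM, 68.3% with at least 20 reads, 56.5% under the further scaling, 54.4% with reads scaled by library total and 74.5% over protein-coding genes. The share of lower P genes also lower in L/Z was 58.4% with a pseudocount of 0.1, 57.3% without the filter, 56.6% above 10 FPKM, 69.0% under the further scaling and 68.1% with reads scaled by library total. For higher L/Z genes also higher in P these shares were 34.8% (pseudocount of 0.1), 21.2% (no filter), 31.4% (above 10 FPKM), 34.0% (further scaling) and 33.8% (library total). For higher P genes also higher in L/Z they were 46.7% (no filter), 84.4% (above 10 FPKM), 81.6% (at least 20 reads) and 85.2% (protein-coding).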

Other observations

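Genes of small RNAs and pseudogenes are outside the gene lists. Among small RNA genes, 92 of 211 miRNA genes were at least 2-fold lower and 43 higher, 60 of 155 small nuclear RNA genes were lower and 29 higher, and 44 of 148 small nucleolar RNA genes were lower and 25 higher. These genes are short, and a change of few reads moves them past 2-fold. Of 1023 processed pseudogenes 131 were lower and 85 higher. The gene of highest FPKM in both L/Z libraries was Gm23935, a miRNA gene of 57 bases, with 5054 and 7026 FPKM. It was at 88643 FPKM in P MFN2 WT at PD 52.

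Of the 22 measured clustered histone genes 3 were higher in L/Z MFN2 cKO. Beside Hist1h2al they were Hist1h1c, a linker histone of somatic and germ cells, with 6.21 and 21.6 FPKM, and Hist1h2bc, with 3.53 and 9.27 FPKM. The other 3 pairs gave changes of 0.58, 1.83 and 0.37 for Hist1h1c (P at PD 24, L/Z at PD 52 and P at PD 52). On the Y chromosome 1 of 23 protein-coding genes was higher, Gm47283, with 1.22 and 3.96 FPKM, and it was also higher in MFN2 cKO in the other 3 pairs.

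The genes that kept all 4 MFN2 cKO libraries apart from all 4 MFN2 WT libraries and passed 2-fold in the L/Z pair at PD 24 numbered 7 on chromosome 8, between positions 20567597 and 85135926 on GRCm38. Besides Klf1, Hpgd and Galntl6 they were Defa29, a defensin gene with 0 FPKM in all 4 MFN2 WT libraries and 1.16 to 9.16 FPKM in MFN2 cKO, Gm9495, Gm21092 and Gm45316. These 7 are 0.748% of the 936 measured genes of chromosome 8, beside 56 of 17664 (0.317%) over all. Chromosome 13 had 8 of 669 (1.20%) and chromosome 3 had 6 of 832 (0.721%), so chromosome 8 did not stand alone. Gm11702, a pseudogene on chromosome 11, was at 0 to 0.718 FPKM in MFN2 WT and at 15.9 to 35.1 FPKM in MFN2 cKO, and Gm10243, a pseudogene on chromosome 6, was at 0.744 to 4.68 and 13.9 to 39.3 FPKM.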
